A study of Homo sapiens with 6 samples.

Results

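The G1 cyclins and their kinase regulators are described here in HDQ-P1 cells as a group of 10 genes chosen by name: the D-type cyclins CCND1, CCND2 and CCND3, the E-type cyclins CCNE1 and CCNE2, the kinase CDK6, and the CDK inhibitors CDKN1B, CDKN1C, CDKN2A and CDKN2B. They are 10 of the 40295 gene rows of the deposited table, all 10 have a row, and all 10 passed the filter on low counts, CCND2 only through the untreated group. HDQ-P1 is an established line of human cancer cells, and both groups are of this line. RNA-seq was performed on 3 untreated libraries and on 3 libraries of cells exposed to 1 μM Y-320, a small molecule that the study examined as an enhancer of readthrough at premature termination codons, for 48 h. The sources do not say that untreated cells were given the solvent, and all values come from 1 cell line. Estimated counts per gene, made with kallisto, totalled 21045401 to 22740535 per library, and levels are given as CPM, counts scaled to a common TMM-normalized library total.

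Progression through G1 depends on D-type cyclins, which activate CDK4 and CDK6, and then on E-type cyclins, which activate CDK2. These kinases phosphorylate the retinoblastoma protein RB1 and its relatives, which releases E2F transcription factors to switch on genes of DNA replication. The INK4 inhibitors encoded by CDKN2A and CDKN2B bind CDK4 and CDK6, whereas the CIP/KIP inhibitors p27 (CDKN1B) and p57 (CDKN1C) bind cyclin-CDK complexes, those of CDK2 above all.

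With Y-320, the mRNA of CCND1, the most abundant of the cyclins, fell by 48.1%. CDK6 also fell, and so did CCND2 and CDKN1C, which were expressed at low levels. The inhibitor CDKN1B rose by 19.6%, and the adjacent inhibitors CDKN2B and CDKN2A moved in opposite directions by small amounts. CCND3, CCNE1 and CCNE2 did not pass the test. In edgeR's quasi-likelihood test, with p-values adjusted by Benjamini-Hochberg and a threshold of 0.05, 2 of the 10 genes passed as higher in treated cells, where 26.2% of the 16580 genes tested were higher. The count of lower genes was 5 of 10, against 25.4% of all genes tested. Either direction gave 7 of 10 against 51.5%, and 7 of 10 had groups that did not overlap against 59.2%. When the log2 fold change also had to be 0.5 or more in size, 3 of 10 remained, CCND1, CCND2 and CDKN1C, all of them lower, against 15.7% of all genes. CCND2 passed the filter on low counts through its untreated libraries alone, so it had to differ to be tested. With at least 10 counts required in every library, 9 of the genes were tested and 4 were lower. Under that filter 4187 of all 15496 genes tested were lower. Past the condition on size were 2 of the 9, and the share of all genes was not counted there. The median log2 fold change was -0.10 over the 10 genes and 0.00 over all genes tested, and the median size of change was 0.23 and 0.21. Many genes moved in this experiment, so passing the test alone sets a gene apart little. The labels do not say whether the libraries of a group came from separate cultures, so p-values measure the spread between these libraries, which may be technical. In bulk RNA, fewer cells in G1 and less of a transcript in each cell cannot be told apart.

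**Figure D1:**
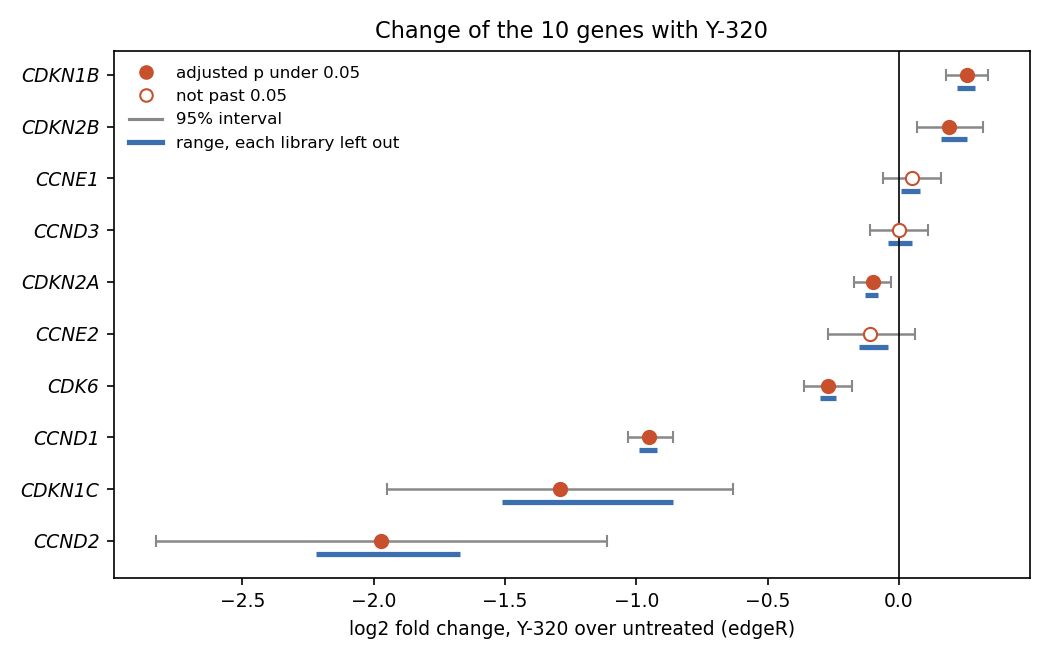
Log2 fold change of each of the 10 genes, Y-320 over untreated, from edgeR (x axis), with 1 gene per line (y axis). Points are the fitted values, filled where the adjusted p was under 0.05, grey bars are 95% confidence intervals and blue bars the range when each of the 6 libraries was left out in turn. CCND2, CDKN1C and CCND1 lie farthest to the left at -1.97, -1.29 and -0.95, and the other 7 genes lie between -0.27 and 0.26.

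The D-type cyclins link growth signals to the cell cycle, and cyclin D1 is the one most often overexpressed in epithelial cancers. CCND1 (ENSG00000110092, chr11:69641156-69654474 on the plus strand of hg38) stood at 520, 488 and 495 CPM without treatment and at 277, 251 and 252 CPM with Y-320. Every treated library lay far below every untreated one. The mean went from 501 ± 16.5 (SD, n = 3) to 260 ± 14.5 (n = 3), a log2 fold change of -0.95 (SE 0.0395, 95% interval -1.03 to -0.86, edgeR adjusted p = 2.54e-08). Only 3.08% of the genes tested had a lower fold change. Of the 31-base words of CCND1 transcripts, 9.26% also occur in LTO1, a gene that overlaps its end on the other strand. LTO1 had 69.3, 70.7 and 68.4 CPM untreated and 72.7, 71.4 and 72.0 CPM with Y-320 (log2 fold change 0.05, adjusted p = 0.166).

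CCND2 (ENSG00000118971, chr12:4269771-4305353, plus strand) was close to the limit of detection. Its estimated counts were 13.6, 21.1 and 31 without treatment and 6, 6 and 5.18 with Y-320, that is 0.634, 1.01 and 1.40 CPM against 0.263, 0.275 and 0.226 CPM. The groups did not overlap, and the treated libraries hold only a few counts each. The log2 fold change was -1.97 (SE 0.386, interval -2.83 to -1.11, adjusted p = 0.00158). Only the untreated libraries lifted the gene over the filter, since the treated ones lie under 10 counts each, and this value is given as a description. An overlapping gene model without a symbol, ENSG00000285901, shares 12.1% of the CCND2 words and had 43.9, 46.2 and 47 counts untreated and 14, 10.1 and 41.3 counts with Y-320. Reads in the shared part could be assigned to either gene.

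CCND3 (ENSG00000112576, chr6:41934934-42050357, minus strand) had the same mean in both groups. Its levels were 32.8, 34.4 and 36.9 CPM in untreated cells and 35.7, 34.9 and 33.5 CPM in treated cells, and the groups overlapped. The log2 fold change was 0.00 (SE 0.0506, adjusted p = 0.997), and its 95% interval ran from -0.11 to 0.11. CCND1 and CCND3 thus differed less in the treated libraries than in the untreated ones. The log2 ratio of their counts was 3.99, 3.83 and 3.74 untreated and 2.95, 2.85 and 2.91 with Y-320, a difference of -0.95 with no overlap (exact permutation test, two-sided p = 0.1, the smallest that 3 against 3 libraries allow).

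CDK6 (ENSG00000105810, chr7:92604921-92836573, minus strand) encodes one of the kinases that D-type cyclins activate. It fell from 100, 96.7 and 93.2 CPM to 77.9, 84.4 and 78.7 CPM, with every treated library below every untreated one. The log2 fold change was -0.27 (SE 0.0397, interval -0.36 to -0.18, adjusted p = 0.000242). CDK4, the other partner of the D-type cyclins, stood at 103, 99.4 and 99.5 CPM untreated and 95.2, 100 and 99.5 CPM with Y-320, and did not pass the test (log2 fold change -0.04, SE 0.0317, adjusted p = 0.379).

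The E-type cyclins drive the step from G1 into S phase with CDK2. CCNE1 (ENSG00000105173, chr19:29811991-29824312, plus strand) had 26.3, 26.3 and 25.3 CPM untreated and 28.3, 26.4 and 25.9 CPM with Y-320. The groups overlapped, with a log2 fold change of 0.05 (SE 0.0489, interval -0.06 to 0.16, adjusted p = 0.426). CCNE2 (ENSG00000175305, chr8:94879770-94896678, minus strand) had 16.4, 16.5 and 15.2 CPM against 13.5, 15.9 and 15.4 CPM. Here also the groups overlapped, and the log2 fold change of -0.11 (SE 0.0731, interval -0.27 to 0.06, adjusted p = 0.262) did not pass. INTS8 overlaps CCNE2 on the other strand and holds 36.0% of its 31-base words, so reads in the shared part could be assigned to either gene. INTS8 itself was lower with Y-320, from 58.0, 58.1 and 55.2 CPM to 43.5, 44.8 and 43.1 CPM (log2 fold change -0.38, adjusted p = 1.07e-05). CDK2, the partner of both E-type cyclins, fell from 72.1, 71.5 and 69.9 CPM to 60.8, 58.3 and 57.9 CPM (log2 fold change -0.27, SE 0.0333, adjusted p = 6.41e-05).

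**Figure D2:**
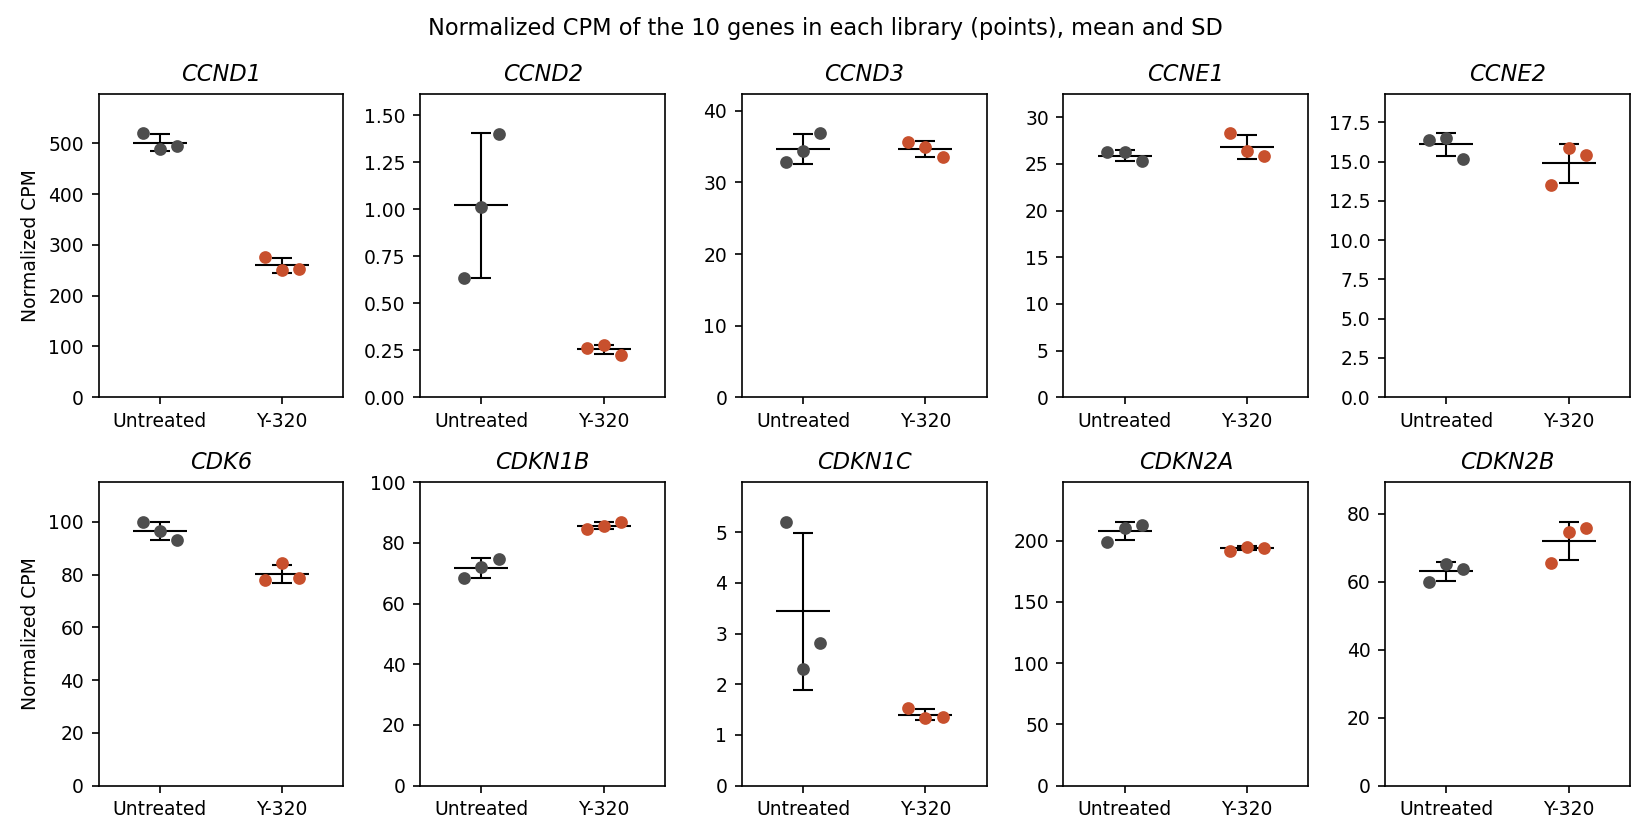
Normalized CPM (y axes, each from 0) of the 10 genes in the 3 untreated and 3 Y-320 libraries (x axes). Points are libraries, the wide horizontal bar is the mean and the error bar the SD. The groups are separate for CCND1, CCND2, CDK6, CDKN1B, CDKN1C, CDKN2A and CDKN2B and overlap for CCND3, CCNE1 and CCNE2. In CDKN1C, 1 untreated library stands at 5.21 and the other untreated libraries at 2.30 and 2.81.

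CDKN2A and CDKN2B lie next to each other on chromosome 9. CDKN2A encodes p16INK4a and, from another first exon and reading frame, ARF, and a gene-level count cannot separate the 2 products. CDKN2B encodes p15INK4b. CDKN2A (ENSG00000147889, chr9:21967752-21995301, minus strand) had 199, 210 and 213 CPM in untreated cells and 192, 195 and 194 CPM with Y-320. The treated libraries were all lower but by a small margin, from 208 ± 7.61 to 194 ± 1.71 (SD, n = 3 each). Its log2 fold change was -0.10 (SE 0.0303, interval -0.17 to -0.03, adjusted p = 0.0180), and the call was lost without Untreated replicate 2 (-0.09, adjusted p = 0.0626) or without Untreated replicate 3 (-0.08, adjusted p = 0.0734). Of its words, 13.3% occur in the antisense gene CDKN2B-AS1, which was not used here.

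CDKN2B (ENSG00000147883, chr9:22002903-22009305, minus strand) had 59.8, 65.3 and 63.7 CPM untreated and 65.5, 74.7 and 75.7 CPM with Y-320. The lowest treated library lay just above the highest untreated one. Its log2 fold change was 0.19 (SE 0.0566, interval 0.07 to 0.32, adjusted p = 0.0155). The call was lost without Untreated replicate 1 (0.16, adjusted p = 0.0661), Y-320 replicate 2 (0.17, adjusted p = 0.0604) or Y-320 replicate 3 (0.16, adjusted p = 0.0605). In each of these fits 1 of the 10 genes was higher, CDKN1B alone. Of all genes in the same fits, 3917 to 4042 of 16840 to 16875 tested were higher. The log2 ratio of CDKN2B to CDKN2A counts, which needs no scaling between libraries, was -1.74, -1.69 and -1.74 untreated and -1.55, -1.38 and -1.36 with Y-320. The difference was 0.29, with no overlap (two-sided exact permutation p = 0.1).

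p27, encoded by CDKN1B, holds cyclin E-CDK2 inactive until SKP2 marks it for degradation. CDKN1B (ENSG00000111276, chr12:12685498-12722369, plus strand) rose from 68.3, 72.0 and 74.7 CPM to 84.6, 85.5 and 87.0 CPM. All treated libraries were above all untreated ones. The log2 fold change was 0.26 (SE 0.0368, interval 0.18 to 0.34, adjusted p = 0.000185) and stayed between 0.22 and 0.29 when each library was left out. GPR19, which overlaps CDKN1B on the other strand, had 6.25, 6.52 and 6.98 CPM untreated and 7.44, 7.92 and 8.44 CPM with Y-320 (log2 fold change 0.27, adjusted p = 0.0327). GPR19 passed in only 2 of the 6 fits that left out 1 library.

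CDKN1C (ENSG00000129757, chr11:2883213-2885775, minus strand) encodes p57, an inhibitor expressed from the maternal copy in many tissues. Its estimated counts were 115, 48.4 and 62.2 without treatment and 35.3, 29.5 and 30.2 with Y-320, which is 5.21, 2.30 and 2.81 CPM against 1.53, 1.33 and 1.35 CPM. Untreated replicate 1 stood well above the other untreated libraries, and the groups did not overlap with or without it. The log2 fold change was -1.29 (SE 0.296, interval -1.95 to -0.63, adjusted p = 0.00414). Leaving out Untreated replicate 1 gave -0.86 (adjusted p = 0.00834). CDKN1B and CDKN1C, the 2 CIP/KIP genes of the group, therefore passed in opposite directions.

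RefSeq promoter windows on GRCh38.p14, 250 bases before a start site, were found for 6 of the 10 genes, with 10 windows in all. CCND1, CCND2, CCNE2 and CDKN1C have no entry in the table used. Windows are shown for genes past the test, so that the sequence next to each start can be read beside its change: CDKN1B (chr12:12717118-12717367, plus strand) and CDKN2B (chr9:22009306-22009555, minus strand), which were higher, and the upstream start of CDK6 (chr7:92836574-92836823, minus strand) and of CDKN2A (chr9:21995325-21995574, minus strand), which were lower. Each is written 5′ to 3′ on the strand of its gene. Capitals mark GC boxes (GGGCGG) and CCAAT boxes (CCAAT) read on either strand.
CDKN1B: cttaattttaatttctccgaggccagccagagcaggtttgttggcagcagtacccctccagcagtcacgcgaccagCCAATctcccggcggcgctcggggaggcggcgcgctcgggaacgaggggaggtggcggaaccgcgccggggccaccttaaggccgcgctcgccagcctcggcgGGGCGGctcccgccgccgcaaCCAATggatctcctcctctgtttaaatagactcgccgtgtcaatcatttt
CDKN2B: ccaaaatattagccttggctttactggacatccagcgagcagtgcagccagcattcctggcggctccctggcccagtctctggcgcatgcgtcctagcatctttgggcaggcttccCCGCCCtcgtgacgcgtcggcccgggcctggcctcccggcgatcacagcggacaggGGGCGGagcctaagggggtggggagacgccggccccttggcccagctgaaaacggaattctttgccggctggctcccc
CDK6: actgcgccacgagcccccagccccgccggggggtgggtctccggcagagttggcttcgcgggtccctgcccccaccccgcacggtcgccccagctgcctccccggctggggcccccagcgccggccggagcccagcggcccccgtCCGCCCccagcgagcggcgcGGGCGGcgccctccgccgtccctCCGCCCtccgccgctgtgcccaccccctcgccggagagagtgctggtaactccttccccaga
CDKN2A: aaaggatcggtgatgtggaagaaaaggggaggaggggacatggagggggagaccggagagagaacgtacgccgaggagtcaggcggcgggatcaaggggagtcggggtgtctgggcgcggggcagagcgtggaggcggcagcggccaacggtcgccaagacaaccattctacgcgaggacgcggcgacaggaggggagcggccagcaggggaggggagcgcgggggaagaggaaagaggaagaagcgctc
The CDKN1B window held 1 GC box and 2 CCAAT boxes, the CDKN2B window 2 GC boxes, the CDK6 window 3 GC boxes and the CDKN2A window none of either. Of the windows not shown, that of the other CDK6 start held neither box and that of the other CDKN2A start held 1 GC box. A gene-level count does not say which start of CDK6 or CDKN2A its change belongs to. Over all 35116 windows of this length, 42.6% held a GC box and 32% a CCAAT box. Of the genes that did not pass the test, CCNE1 had 7 GC boxes and 0 CCAAT boxes in its window. The 3 windows of CCND3 had 0, 2 and 5 GC boxes and, in the same order, 1, 1 and 0 CCAAT boxes. The E2F words TTTGGCGC and TTTCGCGC, the FOXO word GTAAACA, the cAMP response element TGACGTCA, the AP-1 words TGACTCA and TGAGTCA, and TGATGCAA, a C/EBP-ATF word, were in none of the 10 windows. These words occur in 0.968%, 2.98%, 1.65%, 4.20% and 0.772% of all windows. The absence says only that these letters are not in these 250 bases.

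To compare levels between genes, CPM was divided by the median length in kb of the annotated protein-coding transcripts. On this scale the order in untreated cells was CDKN2A (255 ± 9.35 CPM per kb), CCND1 (209 ± 6.90), CDKN1B (43.3 ± 1.96), CDKN2B (21.2 ± 0.955), CCND3 (20.1 ± 1.21), CCNE1 (15.8 ± 0.350), CDK6 (8.31 ± 0.295), CCNE2 (7.96 ± 0.359), CDKN1C (1.94 ± 0.876) and CCND2 (0.156 ± 0.0591; SD, n = 3 each). Neighbours in this order were farther apart than the spread between libraries, except CDKN2B and CCND3, and CDK6 and CCNE2, whose libraries overlapped. That spread does not include the choice of transcript length. For CDKN1B the median length was 1654 bases and the longest 4335, and for CDKN2B 2975.5 and 3853. The order and its exceptions therefore hold for the median lengths only, and the order with other lengths was not examined. With Y-320, CDKN2A (238 ± 2.10 CPM per kb) and CCND1 (109 ± 6.06) were still the highest, and CDKN2B (24.2 ± 1.9) lay above CCND3 (20.1 ± 0.656) in every library. CCNE2 (7.40 ± 0.616) and CDK6 (6.90 ± 0.303) overlapped here as well.

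Within the D-type cyclins, CCND1 gave 91.9%, 91.0% and 90.5% of the summed CPM per kb in untreated libraries and 84.8%, 83.8% and 84.4% with Y-320. The CCND3 share went from 8.78% ± 0.672 to 15.7% ± 0.501 (SD, n = 3), although its level did not pass the test. The D-type sum went from 229 ± 6.14 to 129 ± 6.56 CPM per kb, and none of these values overlapped between groups (two-sided exact permutation p = 0.1 each). The E-type sum was 23.8 ± 0.708 untreated and 23.8 ± 0.325 with Y-320, with overlapping groups (exact p = 1). CCNE1 made up 66.5% ± 0.525 of it untreated and 68.8% ± 2.76 with Y-320, also overlapping (exact p = 0.2).

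Among the 4 inhibitors, CDKN2A gave 79.3% ± 0.149 of the summed CPM per kb untreated and 75.6% ± 0.459 with Y-320. The CDKN1B share went from 13.5% ± 0.171 to 16.5% ± 0.147, the CDKN2B share from 6.58% ± 0.146 to 7.68% ± 0.5, and the CDKN1C share from 0.610% ± 0.299 to 0.252% ± 0.0236. All 4 shares were separate between groups (two-sided exact permutation p = 0.1). Their sum was not, at 321 ± 11.3 CPM per kb untreated and 315 ± 4.44 with Y-320 (exact p = 0.5). The summed D-type cyclins per summed CDKN2A and CDKN2B were 0.892, 0.799 and 0.805 in untreated libraries and 0.529, 0.473 and 0.473 with Y-320. This ratio of transcript levels fell by 0.34 between the means, without overlap (exact p = 0.1), and says nothing of protein. Its size depends on the transcript lengths used.

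**Figure D3:**
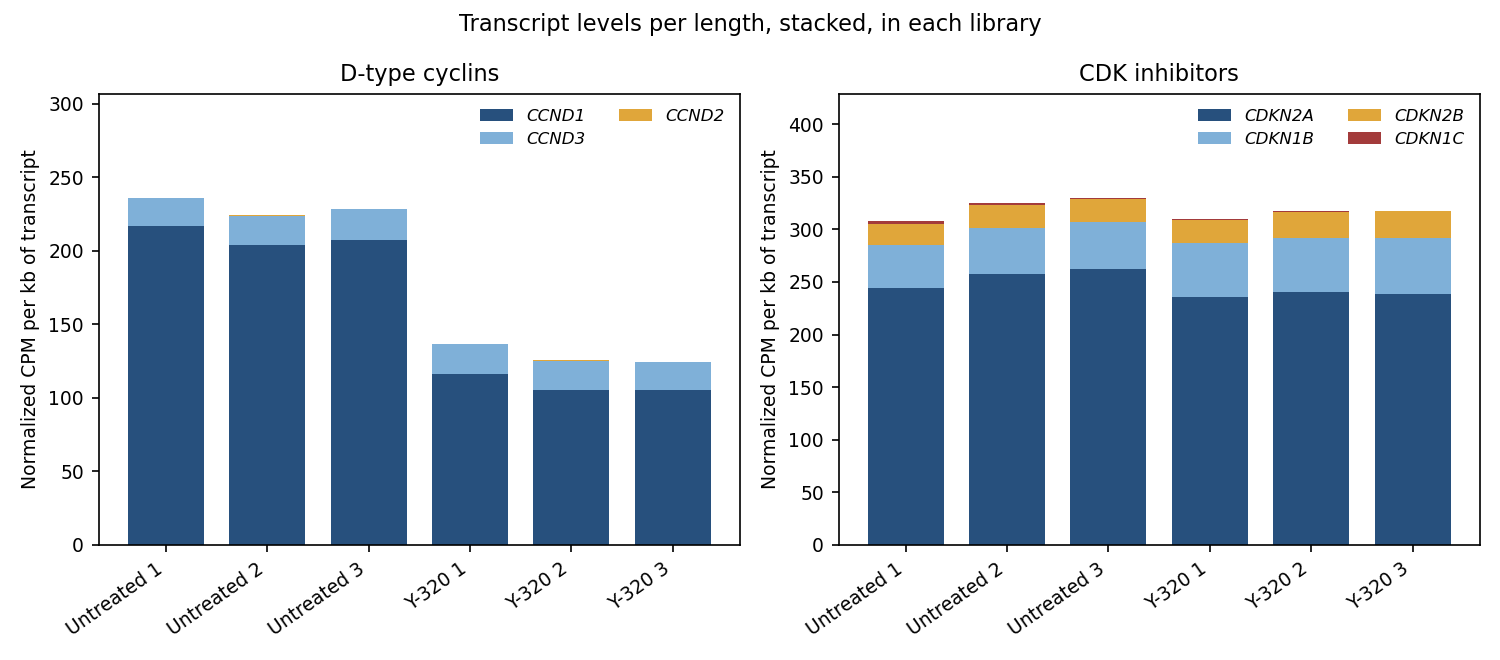
Normalized CPM per kb of transcript (y axes, from 0) in each of the 6 libraries (x axes), stacked over the 3 D-type cyclins (left) and the 4 CDK inhibitors (right). The D-type sum lies between 224 and 236 in untreated libraries and between 125 and 136 with Y-320, with most of the gap in its CCND1 portion, while the inhibitor sums of the groups overlap.

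The rest of the G1 to S machinery was followed in a list of 50 genes, all of them tested. Of these, 19 were higher and 8 were lower, beside 26.2% and 25.4% of all genes tested, and 23 did not pass. The median log2 fold change was 0.06. Either direction gave 27 of 50, beside 51.5% of all genes tested, and 6 of 50 were also at least 0.5 in size, beside 15.7%. These last counts lie near the shares of all genes. By direction, more of the list was higher than lower, but the list was chosen with earlier results of these data known. With upper-quartile scaling 16 were higher and 11 lower, beside 3917 and 4746 of all 16580 genes tested. In DESeq2 14 were higher and 7 lower, beside 3405 and 3278 of all genes. Among 11 kinases, kinase activators and other inhibitors, 4 were higher and 1, CDK2, was lower, beside 26.2% and 25.4% of all genes. CDKN1A, which encodes the CIP/KIP inhibitor p21, had 36.6, 39.8 and 41.5 CPM untreated and 105, 114 and 109 CPM with Y-320. Its log2 fold change was 1.47 (SE 0.0489, adjusted p = 5.27e-09), beside 0.26 for CDKN1B and -1.29 for CDKN1C. CDKN2D, encoding the INK4 inhibitor p19INK4d, rose from 24, 22.5 and 21.9 CPM to 34.2, 32.4 and 32.4 CPM (log2 fold change 0.53, adjusted p = 7.73e-06). CDC37, a chaperone partner of CDK4 and CDK6, had a log2 fold change of 0.22 (adjusted p = 2.31e-05). CDK7, of the kinase complex that activates other CDKs, had 10.8, 22.2 and 11.5 CPM untreated and 22.5, 23.3 and 23.4 CPM with Y-320. Untreated replicate 2 was near the treated libraries. The CDK7 call (log2 fold change 0.64, SE 0.211, adjusted p = 0.0260) was lost in DESeq2 (adjusted p = 0.126), without Untreated replicate 1 (0.46, adjusted p = 0.0955), Untreated replicate 3 (0.49, adjusted p = 0.102), Y-320 replicate 2 (0.64, adjusted p = 0.0649) or Y-320 replicate 3 (0.64, adjusted p = 0.0609).

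The pocket proteins and E2F factors carry the signal from the kinases to the genome. Of 13 genes, 4 were higher and 2 lower, beside 26.2% and 25.4% of all genes tested, and none reached 0.5 in size, TFDP2 coming nearest at -0.50 after rounding. RB1 had 35.1, 33.9 and 33.3 CPM untreated and 32.9, 34.5 and 33 CPM with Y-320 (log2 fold change -0.03, adjusted p = 0.587). E2F1, the best known activator of the family, had 81.6, 79.0 and 78.8 CPM against 85.0, 82.3 and 82.3 CPM (0.06, adjusted p = 0.126). TFDP2, a partner of E2F proteins, fell from 73.6, 74.9 and 76.6 CPM to 54.1, 52.2 and 53.0 CPM (adjusted p = 5.68e-07). The log2 fold change of RBL2, which encodes the pocket protein p130, was -0.27 (adjusted p = 4.98e-05), and that of E2F7, a repressor, was 0.25 (adjusted p = 0.00612). The other higher genes were RBL1 (0.20), which encodes the pocket protein p107, E2F4 (0.18) and E2F3 (0.12). E2F3 passed in 3 of the 6 fits that left out 1 library.

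Ubiquitin ligases set how long G1 cyclins and p27 last. Of 12 such genes, 3 were higher, 4 were lower and 5 did not pass, beside the same 26.2% and 25.4% of all genes. SKP2, the subunit that recognises p27, fell from 85.2, 83.9 and 83.7 CPM to 52.5, 50.8 and 49.3 CPM (log2 fold change -0.73, SE 0.0333, adjusted p = 4.70e-08). CUL4B, a cullin scaffold, fell from 238, 252 and 246 CPM to 135, 133 and 133 CPM (-0.88, SE 0.0284, adjusted p = 4.78e-09). Neither gene had overlapping groups. The other lower genes were SKP1 (-0.30, adjusted p = 6.11e-06) and CUL1 (-0.13, adjusted p = 0.00739), which build the same ligase as SKP2. The higher genes were FBXO31 (0.42, adjusted p = 0.000151) and FBXO4 (0.29, adjusted p = 0.000615), substrate receptors reported for cyclin D1, and DDB1 (0.20, adjusted p = 2.62e-05), the adaptor of CUL4 ligases. The genes that did not pass were AMBRA1 (0.07, adjusted p = 0.143), FBXW7 (-0.10, adjusted p = 0.311), CKS1B (0.03, adjusted p = 0.468), CUL4A (0.01, adjusted p = 0.636) and RBX1 (0.01, adjusted p = 0.911). SKP2 and CDKN1B mRNA moved in opposite directions in these libraries, in an experiment where 51.5% of all genes passed.

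Transcriptional regulators of the INK4 genes, CDKN1B and the D-type cyclins gave 8 higher and 1 lower of 14, beside 26.2% and 25.4% of all genes tested, with a median log2 fold change of 0.12. RING1, a Polycomb subunit, was at a low level of 1.31, 1.49 and 1.09 CPM untreated and 3.37, 2.06 and 3.70 CPM with Y-320 (log2 fold change 1.23, SE 0.247, adjusted p = 0.00184). FOXO4, of the family that activates CDKN1B, rose from 14.0, 16.3 and 14.9 CPM to 19.8, 19.7 and 19.2 CPM (0.38, adjusted p = 0.000640). SMAD4, the shared mediator of TGF-β signals, rose from 34.7, 30.3 and 31.4 CPM to 39.2, 42.2 and 40.9 CPM (0.34, adjusted p = 0.000408). The lower gene was KDM2B (-0.13, adjusted p = 0.0260), which passed in 3 of the 6 fits that left out 1 library.

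**Figure D4:**
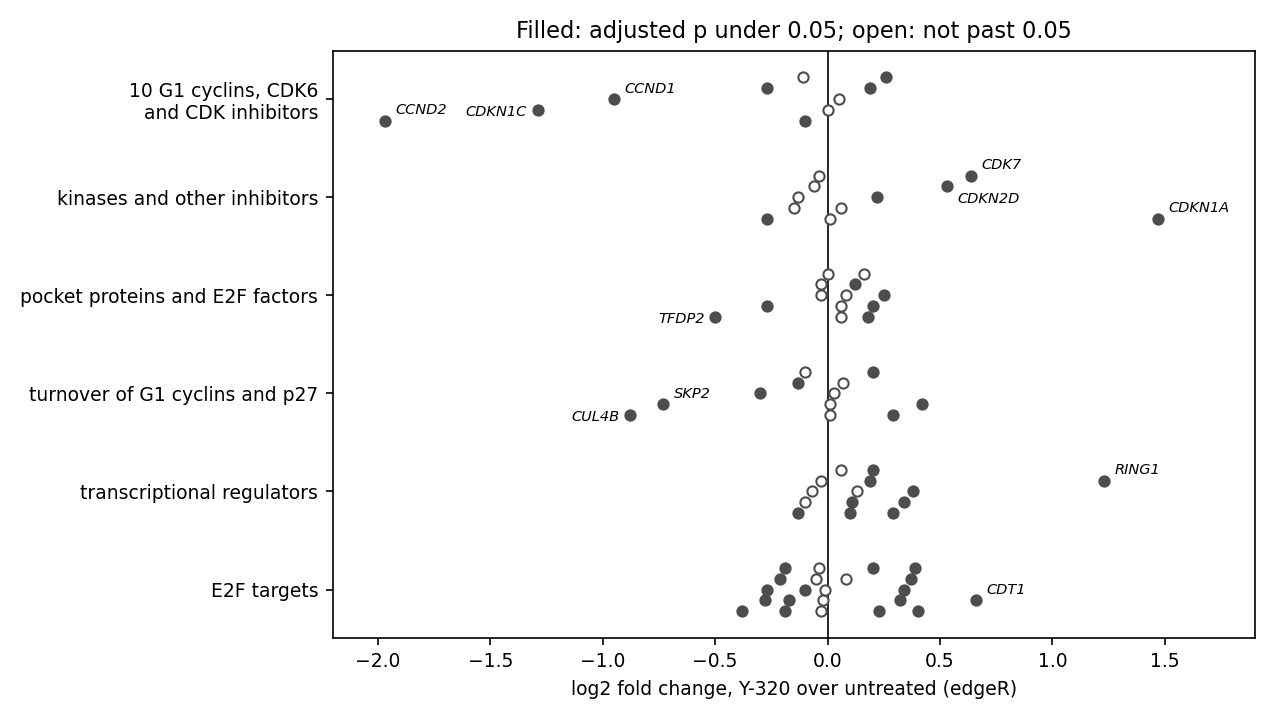
Log2 fold change, Y-320 over untreated (x axis), of the 10 genes, of 4 lists of the G1 to S machinery and of E2F target genes (y axis, 1 list per line, with points offset only to separate them). Filled points had an adjusted p under 0.05. CDKN1A at 1.47 is the farthest to the right and CCND2 at -1.97 the farthest to the left, and the E2F targets lie between -0.38 and 0.66.

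Genes that E2F factors activate in late G1 and S phase did not move in 1 direction. Of 22 listed, 8 were higher, 8 were lower and 6 did not pass, beside 26.2% higher and 25.4% lower among all genes tested, with a median log2 fold change of -0.03. CDT1, which licenses replication origins, rose from 76.1, 78.7 and 78.8 CPM to 121, 124 and 124 CPM (0.66, SE 0.0292, adjusted p = 3.67e-08). ORC1, of the origin recognition complex, rose from 25, 24 and 22.6 CPM to 32.3, 30.7 and 31.4 CPM (0.40, adjusted p = 6.40e-05). TK1, thymidine kinase, rose from 184, 192 and 186 CPM to 241, 248 and 247 CPM (0.39, adjusted p = 7.70e-07). The lowest of the list was MCM6, a subunit of the replicative helicase, from 124, 132 and 130 CPM to 100, 97.7 and 98.4 CPM (-0.38, adjusted p = 3.72e-06), named after its values were seen. Of the other subunits of this helicase, MCM2, MCM3 and MCM4 had log2 fold changes of -0.19, -0.21 and -0.19, while MCM5 (-0.04, adjusted p = 0.439) and MCM7 (-0.02, adjusted p = 0.538) did not pass. Those of CHEK1 and RRM2 were 0.32 and 0.37, and all of these were chosen after their values were seen.

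The libraries were checked against markers of the labelled cells. The 9 epithelial markers were all present and summed to 11705.8 to 12273.9 CPM in untreated libraries and 7155.6 to 7252.2 CPM with Y-320, with 8 of 9 lower, keratins above all, and 1, EPCAM, higher. The 5 leukocyte markers summed to 1.31 to 1.95 CPM and 2.17 to 2.52 CPM, and CD3E was at 3 counts or fewer in every library. ITGAM was called higher, but only its treated libraries, at 13, 17 and 16 counts, lifted it over the filter on low counts. The untreated ones held 4, 0 and 2, so ITGAM had to differ to be tested, and its call is only a description. Its mean CPM went from 0.0906 to 0.69. That of CD14 went from 0.726 to 1.06 and that of PTPRC from 0.769 to 0.495, neither past the test. The 4 endothelial markers summed to 17.8 to 19.3 CPM untreated and 14.3 to 18.3 CPM with Y-320, PECAM1 being higher and CDH5 lower. The 5 fibroblast markers summed to 246 to 271 CPM and 125 to 140 CPM, with 4 of 5 lower (COL1A1, COL1A2, PDGFRB and LUM). The epithelial, leukocyte and fibroblast sums were separate between groups and moved with the treatment, and their part in the changes of the G1 genes was not tested.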

How the data were processed

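RNA-seq was analysed in 6 libraries of HDQ-P1 cells, 3 untreated and 3 with Y-320, grouped by the labels. The authors deposited estimated counts per gene from kallisto 0.46.1 (version from the submitters' processing notes) on the hg38 reference from Ensembl, without normalization. The Ensembl release and the strand setting are not given in the sources used here. Of the values, 48.5% were not whole, because reads matching several transcripts are divided, so genes sharing sequence can exchange counts.

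Counts were rounded and matched by identifier to symbols (35390 of 40295). edgeR 4.0.16 in R 4.3.3 was run on all genes with filterByExpr (minimum 10 counts, 15 in total), TMM scaling and the quasi-likelihood test, with Benjamini-Hochberg adjustment over 16580 genes and a threshold of 0.05. The script was tested on simulated data. Other fits used DESeq2 1.42.0 and limma 3.58.1. Tables, exact permutation tests and plots used Python 3.11.15, numpy 2.4.6, pandas 2.3.3 and matplotlib 3.10.9. Coordinates, transcript lengths and shared 31-base words came from GENCODE 44 on hg38, and promoters from RefSeq. One count was worth 0.0440 to 0.0475 CPM, and the limit that 0 counts allows, 3 counts, was 0.132 to 0.143 CPM, for counting error only.

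The 10 genes and all lists were chosen with earlier results of these data known. Besides the 10 genes, the 3 largest changes of each list among genes past the threshold with a mean of at least 1 CPM and groups that did not overlap are named, with CDK4, CDK2, CDKN1A, RB1, E2F1 and SKP2, any count of 5 or fewer in full, neighbours within 20 kb, and MTAP beside CDKN2A. Others named are said to be chosen after their values were seen. Replicates of a group differed beyond counting noise, with a chi-square per degree of freedom of 2.00 to 2.87, against 37.1 to 39 between groups. Some details of the cell line and of the marker lists are not reported here, and counts over lists include them. Alternatives were other scalings, filters, tools and thresholds, unrounded counts, a replicate block, other transcript lengths and leaving out each library.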

Additional observations from a re-analysis of the deposited data

How the results depend on the processing

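CCND1, CDK6, CDKN1B and CDKN1C kept their direction and their side of the threshold in all 15 alternative fits. CCND2 did so in the 14 that tested it. Apart from the fit with no filter, it entered these through its untreated libraries alone, so its stability is only a description. At an adjusted p under 0.01, 1 of the 10 genes was higher and 4 were lower. When each library was left out, 1 to 2 were higher (1 without Untreated replicate 1, Y-320 replicate 2 or Y-320 replicate 3) and 4 to 5 were lower. Of all genes in these fits, 16840 to 16892 were tested, 3917 to 4047 were higher and 3748 to 3925 were lower. With a size of at least 0.25 in place of 0.5, 5 of the 10 genes passed, and 2 with at least 1. The shares of all genes at these sizes, or at an adjusted p under 0.01, were not counted, so these counts lack a background. CCND3, at 0.00 and never past the threshold, changed sign with median-of-ratios scaling (-0.00), upper-quartile scaling (-0.03), at least 10 counts in every library (-0.00) and DESeq2 (-0.00), and ran from -0.04 to 0.05 when each library was left out (-0.04 without Untreated replicate 1, -0.01 without Untreated replicate 2, -0.02 without Y-320 replicate 1, -0.00 without Y-320 replicate 2). With the longest annotated transcript or with no length, the difference in the CCND1 share of the D-type cyclins was -8.13 or -5.2 percentage points (against -6.83), that of the CDKN2A share of the inhibitors -2.6 or -5.15 (against -3.74), and that of the ratio of D-type cyclins to CDKN2A and CDKN2B -0.248 or -0.875 (against -0.34). In DESeq2, 11 of the neighbouring genes passed in place of 18, and 12 to 17 when each library was left out. These fits also called fewer of all genes. DESeq2 called 3405 higher and 3278 lower, against 4336 and 4210 in the main fit. The totals without 1 library, given above, were also under those of the main fit. The cause was not tested.

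Groups share replicate numbers, but same-numbered libraries did not deviate together (correlations -0.018, 0.00746 and 0.000979). A replicate block left the counts at 2 higher and 5 lower of the 10 genes, 19 and 8 of the 50 pathway genes, and 8 and 8 of the 22 E2F targets. In that fit 4285 of all 16580 genes tested were higher and 4159 were lower. No scaling moved the median of all genes by more than 0.029 on the log2 scale. With 3 libraries a group, exact tests cannot go below 0.1. CCND2 and CDKN1C are limited by depth.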

Other observations

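The 2 nearest protein-coding genes on each side of each of the 10 genes numbered 36, not counting the 10 genes themselves, of which 30 were tested, 5 were higher and 13 were lower with Y-320 (edgeR adjusted p under 0.05), beside 26.2% higher and 25.4% lower among all genes tested, with a median log2 fold change of -0.12. The higher genes were PLEKHF1 beside CCNE1 (1.02, adjusted p = 1.63e-06), GPR19 and CREBL2 beside CDKN1B (0.27 and 0.12), PHLDA2 beside CDKN1C (0.37, adjusted p = 0.0285) and DMRTA1 beside CDKN2A and CDKN2B (0.88, adjusted p = 0.0144). PLEKHF1 passed in all 6 fits that left out 1 library, CREBL2 in 4, DMRTA1 in 3, and GPR19 and PHLDA2 in 2 each. Genes within 20 kb of CCND3 were lower although CCND3 itself was not past the test. TAF8, a subunit of the TFIID complex, went from 37.5, 37.3 and 35 CPM to 31.2, 29.5 and 27.4 CPM (log2 fold change -0.32, SE 0.0532, adjusted p = 0.000590). BYSL and MED20, on the other side of CCND3, had log2 fold changes of -0.17 (adjusted p = 0.0141) and -0.19 (adjusted p = 0.0132). BYSL passed in 5 and MED20 in 4 of the 6 fits that left out 1 library.

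Beside CCNE2, NDUFAF6 had a log2 fold change of -0.22 (adjusted p = 0.0257) and passed in 2 of the 6 fits that left out 1 library. TIGAR beside CCND2 (-0.08, adjusted p = 0.396), FAM133B beside CDK6 (-0.12, adjusted p = 0.0753), APOLD1 beside CDKN1B (0.04, adjusted p = 0.511) and SLC22A18 beside CDKN1C (0.02, adjusted p = 0.910) did not pass. MTAP, the gene next to CDKN2A that is often deleted with it in cancers, was expressed at 56.6, 55.1 and 56.0 CPM untreated and 58.2, 53.0 and 54.7 CPM with Y-320 (-0.01, adjusted p = 0.785).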
